A study of Mus musculus with 14 samples.

Results

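The 10 genes described here encode chaperones and folding enzymes of the endoplasmic reticulum (ER), together with Xbp1, a transcription factor that controls many of them. Hspa5, Hsp90b1, Pdia3, Pdia4, Pdia6, Calr, Canx, Dnajb9, Sdf2l1 and Xbp1 form the list, and each was read from the probe rows that the platform annotation assigns to that symbol alone, 1 gene being represented by its probe of highest mean signal. All 10 of 10 were found among 19938 measured genes. Pdia4 had a further, dim probe, every other one had a single probe, and none shared a probe row with another gene.

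RNA came from MEFs, the fibroblasts that grow out of dissociated mouse embryos in culture, infected with SKO retroviruses or with a GFP (green fluorescent protein) retrovirus as the control. SKO is the usual shorthand for Sox2, Klf4 and Oct4 (Pou5f1), factors used to turn fibroblasts into pluripotent cells. After 2 days the cells were moved to embryonic stem cell medium containing LIF, with vitamin C either left out or present at 50 µg/ml. The groups were SKO cells with vitamin C (6 arrays, days 3, 4, 5, 6, 8 and 10 after infection), SKO cells without it (6 arrays, the same days), GFP cells with vitamin C (1 array, day 3) and GFP cells without it (1 array, day 3). No strain, age or sex of the embryos, and no number of separate cultures, was used here. Each condition and day had 1 array, so the error was the unevenness, over the pairs of 1 time course, of the difference between treated and untreated arrays. Comparisons of days or viruses used the treated and untreated arrays of a day as 2 arrays of that day. The p-values therefore do not measure the spread between separate cultures of 1 condition, and the number of arrays limits the precision.

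Proteins that enter the ER are folded there by an Hsp70 chaperone and its J-domain partners, by an Hsp90 chaperone, by disulfide isomerases, and by the calnexin and calreticulin cycle, which binds proteins through their sugar chains. When unfolded proteins build up, the sensors Ern1 (IRE1), Atf6 and Eif2ak3 (PERK) start the unfolded protein response, and Atf6 and spliced Xbp1 then raise transcription of chaperone genes through promoter elements such as the ER stress response element (ERSE). Fibroblasts secrete large amounts of collagen, whose folding depends on ER enzymes, and vitamin C is a cofactor of collagen prolyl hydroxylation.

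The promoter sequences are shown because the ERSE is shared by genes whose signals ran in opposite directions over these arrays. Promoter windows of 250 bases before to 50 bases after the annotated start came from RefSeq, mouse build GRCm38.p6, and all 10 genes had one. The ERSE was searched as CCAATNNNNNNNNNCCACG on both strands. It was present in 5 of 10 genes (Hspa5, Hsp90b1, Pdia6, Calr and Canx), against 21 of 15614 genes with a window (0.1345%). Those 5 are themselves among the 21. The motif was searched because it is known from chaperone genes, as described above, so its presence in them is no independent result. The 6 elements, each written 5′ to 3′ on the strand that reads as the motif, with the fixed boxes in capitals, are:

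Hspa5 element: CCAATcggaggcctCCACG
Pdia6 element: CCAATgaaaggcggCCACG
Calr element: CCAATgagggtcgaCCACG
Canx element: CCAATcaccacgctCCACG
Hsp90b1 distal element: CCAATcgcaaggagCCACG
Hsp90b1 proximal element: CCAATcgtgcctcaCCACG

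The Hspa5 element (chr2:34772025-34772043) lay closest to its start, at bases -65 to -47. The Pdia6 element (chr12:17266491-17266509) lay at -98 to -80. The Canx element (chr11:50325800-50325818) lay at -145 to -127 on the strand of the gene. The Calr element (chr8:84847075-84847093) lay at -162 to -144 on the strand opposite to the gene. Hsp90b1 had 2 elements, one on the strand of the gene at -212 to -194 (chr10:86705638-86705656) and one on the opposite strand at -107 to -89 (chr10:86705533-86705551). The 250 bases before the start are printed for Hspa5 and Pdia6, the genes that passed tests below, and for Calr, which ran against them, on the strand of the gene, with the ERSE boxes in capitals. In Calr the capitals read as the reverse complement.

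Hspa5, chr2:34771840-34772089, plus strand: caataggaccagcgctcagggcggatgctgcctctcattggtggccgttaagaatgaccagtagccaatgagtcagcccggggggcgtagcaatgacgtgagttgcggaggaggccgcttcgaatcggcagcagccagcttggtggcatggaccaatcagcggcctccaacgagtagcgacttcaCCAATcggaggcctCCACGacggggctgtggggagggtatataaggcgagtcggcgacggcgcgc
Pdia6, chr12:17266339-17266588, plus strand: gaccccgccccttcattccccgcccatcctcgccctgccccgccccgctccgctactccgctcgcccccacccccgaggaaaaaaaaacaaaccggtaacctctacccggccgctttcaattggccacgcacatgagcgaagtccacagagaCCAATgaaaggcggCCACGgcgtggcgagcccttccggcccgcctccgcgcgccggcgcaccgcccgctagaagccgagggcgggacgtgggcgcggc
Calr, chr8:84846932-84847181, minus strand: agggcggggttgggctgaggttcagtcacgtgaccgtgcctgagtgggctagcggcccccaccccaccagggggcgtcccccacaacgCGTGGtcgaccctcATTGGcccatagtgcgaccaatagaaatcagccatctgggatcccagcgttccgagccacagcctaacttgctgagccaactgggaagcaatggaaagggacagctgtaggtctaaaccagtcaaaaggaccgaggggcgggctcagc

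The 3′ box CCACG by itself, which also lies inside every ERSE, occurred in 8 of 10 genes (all except Pdia3 and Xbp1), against 42.9% of genes with a window. Neither the ERSE-II motif ATTGGNCCACG (0.0576% of genes) nor TGACGTGG, the core of the unfolded protein response element (0.916% of genes), was found in any of the 10 windows. Among the pathway lists, Creld2, Dnajc3 and Ero1b (3 of 24 other ER folding factors with a window) and Derl3 and Syvn1 (2 of 14 degradation genes) also held an ERSE. It was absent from all 14 stress sensors and transducers, all 21 translocation and glycosylation genes and all 12 cytosolic and mitochondrial chaperones with a window. A match is a run of letters and was not tested as a binding site.

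**Figure D1:**
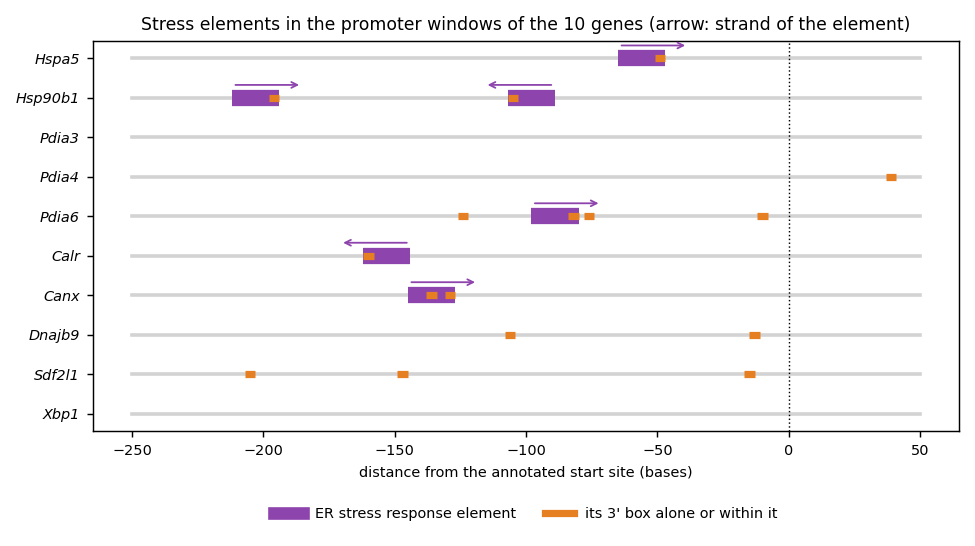
Promoter windows of the 10 genes, with the distance from the annotated start in bases on the x axis and 1 gene per row. Purple bars are ERSE matches, with an arrow for their strand, and orange bars are the CCACG box alone or within them; 5 genes hold an ERSE, and Hsp90b1 holds 2.

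The 14 array medians lay between 5.19 and 5.28 on the log2 scale, and the virus factors were read in every sample. Pou5f1 was 11.2 to 12.6 on the 12 SKO arrays against 4.10 and 4.06 on the GFP arrays with and without vitamin C, Klf4 8.37 to 9.28 against 7.51 and 7.43, and Sox2 5.14 to 6.28 against 4.81 and 4.28 (viral and endogenous transcripts are not told apart). The second principal component (20.1% of the variance between arrays) put the SKO arrays of days 3 and 5 at one end (16.4 to 35.9), those of day 10 near 0 (-0.69 and 2.85), and those of days 4, 6 and 8 (-27.1 to -4.08) with the GFP arrays (-18.3 and -5.69) at the other. Neighbouring days thus stood apart across many genes, and differences between single days below carry this alternation.

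The fibroblast label was set against marker genes. The 10 fibroblast markers averaged 9.65 to 9.99 on the SKO arrays with vitamin C, 9.59 to 10.03 on those without it and 10.16 to 10.67 on the GFP arrays, and the 5 measured markers of professional secretory cells (Cd79a, Mzb1, Jchain, Cpa1 and Cela1) averaged 3.58 to 4.17 over all 14 arrays. The 10 macrophage markers averaged 4.44 to 6.00 with vitamin C, 4.58 to 6.12 without it and 4.88 to 5.21 in GFP cells.

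Hspa5 encodes BiP, the Hsp70 chaperone of the ER (gene at chr2:34772090-34776529). In SKO cells with vitamin C its log2 signal was 9.86, 9.19, 10.05, 9.09, 9.51 and 9.86 on days 3, 4, 5, 6, 8 and 10. Without vitamin C it was 9.91, 9.34, 9.86, 9.45, 9.23 and 9.82 on the same days. Both arms were high on days 3, 5 and 10 and low on days 4, 6 and 8, and the GFP arrays read 9.09 with vitamin C and 9.54 without it.

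Pdia6, a disulfide isomerase (chr12:17266589-17284785), followed the same course. Its log2 signal with vitamin C was 10.10, 9.41, 10.11, 9.30, 9.63 and 9.77 on days 3, 4, 5, 6, 8 and 10. Without it the signal was 10.32, 9.41, 10.02, 9.71, 9.34 and 10.03. GFP cells had 9.38 with vitamin C and 9.55 without it. The days 3, 5 and 10 were again the higher ones in both arms.

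Hsp90b1 encodes Grp94, the Hsp90 of the ER (chr10:86690841-86705444). With vitamin C its log2 signal was 10.91, 10.29, 11.02, 10.46, 10.69 and 10.53 on days 3, 4, 5, 6, 8 and 10. Without vitamin C it was 11.12, 10.78, 11.20, 11.05, 10.59 and 11.11. The GFP arrays read 10.45 with vitamin C and 10.69 without it. On 5 of 6 days the treated SKO array was the lower one, day 8 being the exception.

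Pdia4, a further disulfide isomerase (chr6:47796141-47813512), spanned 8.57 to 9.07 with vitamin C (median 8.77) and 8.71 to 9.18 without it (median 8.89). Its GFP values were 8.81 with vitamin C and 8.91 without it. Pdia3 encodes ERp57, which works with calnexin and calreticulin on glycoproteins (chr2:121413902-121438687). Pdia3 spanned 9.97 to 10.42 with vitamin C (median 10.17) and 10.32 to 10.60 without it (median 10.39), and its GFP arrays read 10.34 and 10.57 with and without vitamin C. Both isomerases overlapped between the arms.

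Calr encodes calreticulin, the soluble lectin chaperone of the ER (chr8:84842088-84846931), and it ran against Hspa5 and Pdia6. With vitamin C its log2 signal was 10.01, 10.41, 9.79, 10.66, 10.05 and 9.89 on days 3, 4, 5, 6, 8 and 10. Without vitamin C it was 10.07, 10.39, 9.95, 10.28, 10.58 and 9.89. The GFP arrays read 10.81 with vitamin C, the highest of the 14 arrays, and 10.45 without it. Canx encodes calnexin, its membrane-bound relative (chr11:50293957-50325673), and had the narrowest range of the 10 genes over the SKO arrays (0.40). It spanned 10.66 to 11.00 with vitamin C and 10.87 to 11.05 without it. Its GFP values were 10.89 and 11.20 with and without vitamin C.

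The other 3 genes had lower signals, which does not order them against the rest because probes differ in brightness. Dnajb9 encodes ERdj4, a J-domain partner of BiP (chr12:44205897-44210068). It spanned 7.13 to 7.88 with vitamin C and 7.36 to 7.87 without it, and read 7.58 and 7.91 in GFP cells with and without vitamin C. Sdf2l1, which forms complexes with ER J-domain proteins (chr16:17130138-17132383), spanned 6.16 to 6.91 with vitamin C and 5.85 to 6.81 without it, with GFP values of 6.07 and 6.45. Xbp1 (chr11:5520641-5525993) spanned 7.40 to 7.95 with vitamin C and 7.48 to 8.02 without it, with GFP values of 7.91 and 7.98. The arms overlapped for all 3, and the gene-level Xbp1 signal does not separate the spliced from the unspliced transcript.

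**Figure D2:**
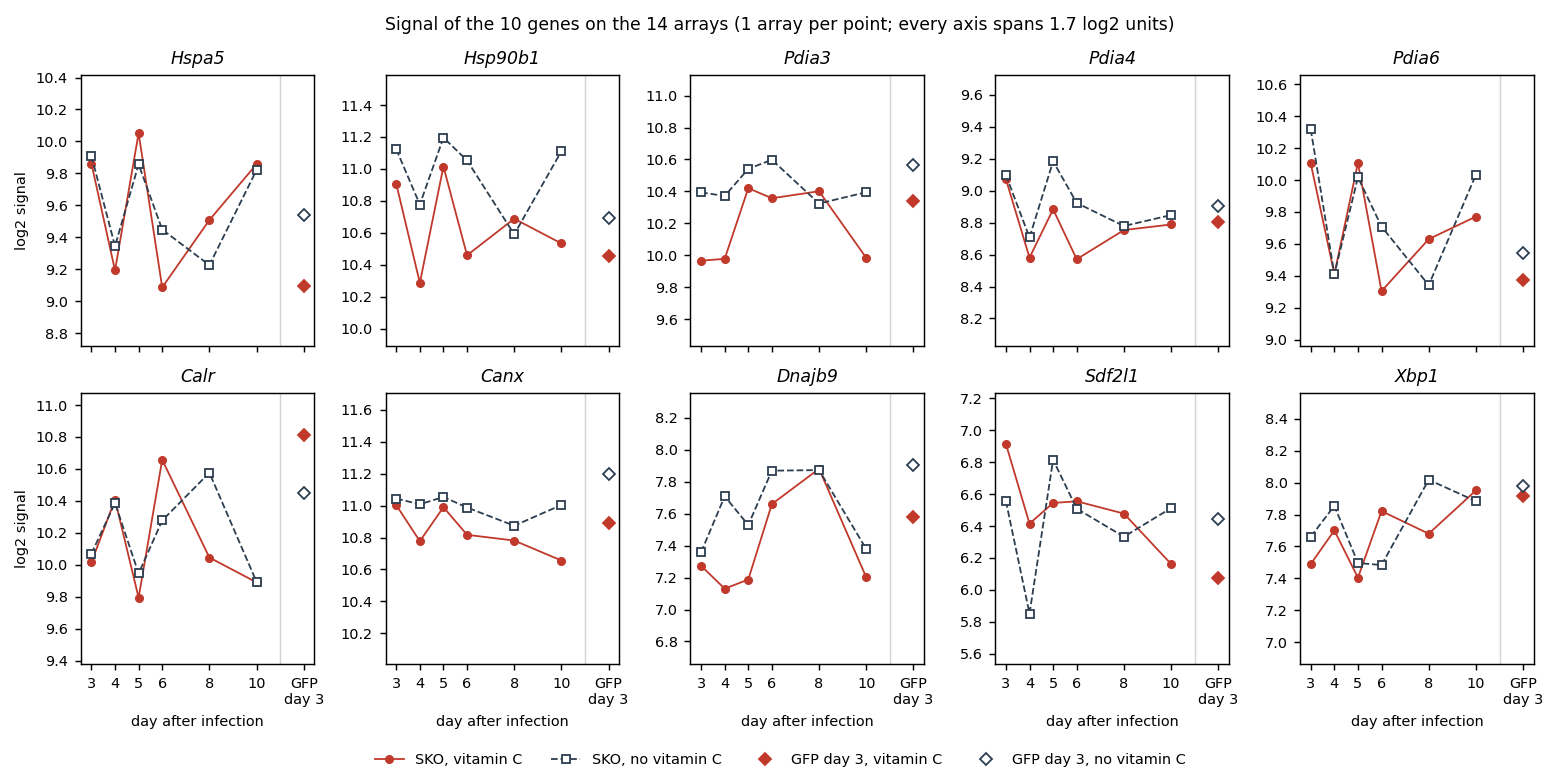
Log2 signal of each gene on the 14 arrays (y axis) by day after infection (x axis), 1 array per point; every panel spans the same range. Red filled points are cells with vitamin C and open dark points cells without it, lines join SKO arrays, and diamonds at the right of each panel, past the grey line, are the GFP arrays of day 3; Hspa5 and Pdia6 are high on days 3, 5 and 10, where Calr is low.

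The first comparison asked whether vitamin C changed these genes in SKO cells. None of the 10 genes passed the test in limma (adjusted p under 0.05 over all genes), against 0.933% of all genes called in either direction. At an unadjusted p under 0.05 the count was 3 of 10 (Hsp90b1, Pdia3 and Dnajb9), against 11.6% of all genes. The difference between cells with and without vitamin C was below 0 for 9 of 10 genes, with a median of -0.12 on the log2 scale, against -0.01 for all genes. RNA was taken from whole cultures, so fewer cells of a type and less RNA per cell cannot be told apart here or in any later comparison.

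The sizes were small. Hsp90b1 differed by -0.33 (SE 0.11, unadjusted 95% interval -0.56 to -0.10, limma adjusted p = 0.226), which is a signal of 0.797 times that without vitamin C. Pdia3 differed by -0.25 (SE 0.09, adjusted p = 0.305) and Dnajb9 by -0.23 (SE 0.09, adjusted p = 0.371). Each was below 0 on 5 of 6 days, with day 8 as the exception for all 3. Pdia4 (-0.15, adjusted p = 0.561) and Canx (-0.16, adjusted p = 0.507) were lower with vitamin C on every one of the 6 days, and daily differences reached -0.35 in each. Those 2 of 10 genes stand against 3.2% of all genes that were lower on all 6 days.

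For the remaining genes the data bound the difference more than they show one. The interval for Hspa5 ran from -0.22 to 0.21 around -0.01, and 3 of its 6 daily differences were below 0. Pdia6 (-0.08), Calr (-0.06) and Xbp1 (-0.06) had intervals reaching from -0.31 to 0.14, from -0.30 to 0.18 and from -0.27 to 0.16. Sdf2l1 was the single gene with a difference above 0, 0.08 with an interval of -0.18 to 0.35, and its daily values spread most widely, from -0.35 on day 10 to 0.56 on day 4.

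**Figure D3:**
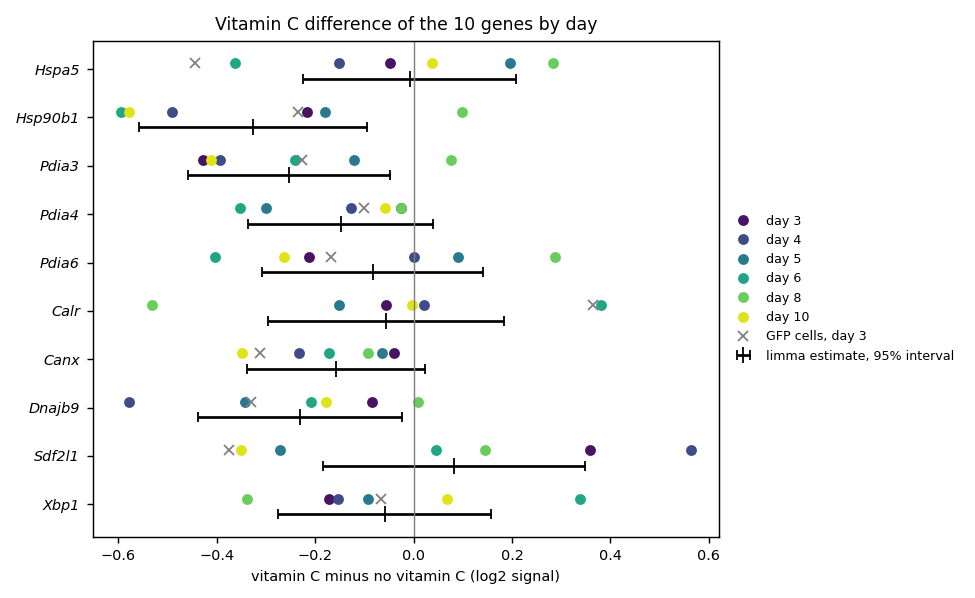
Difference in log2 signal between SKO cells with and without vitamin C (x axis) for each gene (rows). Coloured points are the 6 days, the black tick and bar the limma estimate with its unadjusted 95% interval, and the grey cross the single GFP pair of day 3; Pdia4 and Canx lie left of 0 on every day, and no gene passed the test.

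The GFP cells were measured with and without vitamin C on day 3 only. Their differences were -0.44 for Hspa5, -0.24 for Hsp90b1, -0.31 for Canx and 0.37 for Calr, from 1 pair of arrays with no replicate. No gene of the 10 passed the limma test of whether the vitamin C difference differed between SKO and GFP cells, against 0% of all genes, and 0 of 10 did so at an unadjusted p under 0.05. Likewise 0 of 10 passed the test of a steady drift of the difference per day, against 0.0351% of all genes, and 0 of 10 at an unadjusted p under 0.05.

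In the wider ER pathway 1 gene passed the vitamin C test: Trib3, a pseudokinase induced by Atf4 and Ddit3. Trib3 read 5.20, 5.67, 4.89, 5.14, 5.17 and 5.21 with vitamin C on days 3, 4, 5, 6, 8 and 10. Without vitamin C it read 6.70, 6.43, 5.86, 6.24, 6.14 and 5.46. It was lower with vitamin C on every day, although the arms overlapped across days, and fell by 0.93 on the log2 scale (SE 0.13, limma adjusted p = 0.0123). This difference lay 1.69 above that of the GFP cells, whose 1 pair of arrays thus showed a larger fall. Trib3 was the 1 gene called among 17 stress sensors and transducers. None was called among 30 other ER folding factors, 17 genes of ER-associated degradation, 25 of translocation and N-glycosylation and 15 cytosolic and mitochondrial chaperones, where limma gave 3, 3, 2 and 0 genes at an unadjusted p under 0.05. Their medians were -0.11, -0.08, -0.06 and -0.03 on the log2 scale. In the same test 1 of 10 fibroblast markers (Lum, 0.85) and 1 of 6 endothelial markers (Tek, 0.58) rose, and no macrophage, pluripotency, epithelial or secretory cell marker was called in limma (0, 3, 2 and 1 had an unadjusted p under 0.05). The part of marker changes in the member values was not tested.

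The second comparison set SKO cells against GFP cells on day 3. Pdia6 and Hspa5 rose, which is 2 of 10 genes higher and 0 of 10 lower, against 9.22% of all genes higher and 8.43% lower. In either direction limma called 3519 of 19938 genes, a share close to 2 of 10. At an unadjusted p under 0.05 the count was 7 of 10 members in either direction, against 29.8% of all genes. Pdia6 read 10.10 and 10.32 in SKO cells with and without vitamin C, against 9.38 and 9.55 in GFP cells, a difference of 0.75 (SE 0.17, limma adjusted p = 0.00967), or 1.68-fold. Hspa5 read 9.86 and 9.91 in SKO cells, against 9.09 and 9.54 in GFP cells, a difference of 0.57 (SE 0.19, limma adjusted p = 0.0494), or 1.48-fold. For both genes the SKO and GFP arrays did not overlap on day 3. The same held for Hsp90b1, Pdia4 and Sdf2l1, which read higher in SKO cells, and for Calr, Dnajb9 and Xbp1, which read lower. With 2 arrays of each virus non-overlap is easily reached, and its share over all genes was not counted. It does not set Hspa5 and Pdia6 apart and is not read as a result about the members.

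On the second principal component the SKO arrays of day 3 stood at 35.9 and 34.6 with and without vitamin C. The GFP arrays stood at -18.3 and -5.69. The part of the alternation described above in the differences between SKO and GFP cells was not tested. The calls depended on the day of the SKO arrays. With those of day 4 in place of day 3, the difference from GFP cells was -0.05 for Pdia6 and -0.05 for Hspa5 (limma adjusted p = 0.940 and 0.947). With those of day 5 it was 0.60 and 0.64 (adjusted p = 0.0254 for both). Without the treated SKO array, the untreated SKO array or the treated GFP array of day 3, neither gene was called, and adjusted p reached 0.0819 for Pdia6 and 0.400 for Hspa5. The Pdia6 difference then stayed between 0.68 and 0.82. That of Hspa5 was 0.56 without the treated and 0.58 without the untreated SKO array, and 0.35 without the treated GFP array. Without the untreated GFP array both were called.

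The other members did not pass. Calr read 10.01 and 10.07 in SKO cells with and without vitamin C, against 10.81 and 10.45 in GFP cells, a difference of -0.59 (limma adjusted p = 0.0573). The differences were -0.43 for Dnajb9 (adjusted p = 0.0919), 0.44 for Hsp90b1 (0.114), 0.48 for Sdf2l1 (0.164) and -0.37 for Xbp1 (0.158). Pdia3 (-0.27), Pdia4 (0.23) and Canx (-0.02) lay closer to 0. The members' median was 0.10, against -0.04 for all genes, with 5 of 10 above 0.

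Other folding genes moved in both directions between SKO and GFP cells. Among 30 other ER folding factors 5 rose and 1 fell in limma: Tmx1, a membrane-bound thioredoxin-like oxidoreductase, rose by 1.01 (adjusted p = 0.00141), Ero1b, an oxidase that recharges disulfide isomerases, by 0.93 (0.00686) and Prdx4, an ER peroxiredoxin, by 0.74 (0.0107). Among 17 stress sensors and transducers 2 rose and 4 fell. Creb3l1 (OASIS), a membrane-bound transcription factor of collagen-secreting cells, was 6.68 and 7.17 in SKO cells with and without vitamin C, against 8.72 and 9.19 in GFP cells, and fell by 2.03 on the log2 scale (adjusted p = 4.58e-05). Nupr1 rose by 0.87 (0.00527) and the sensor Atf6 by 0.73 (0.0159). The sensor Ern1 fell by 0.52 (0.0364), and the sensor Eif2ak3 was not called (-0.21, 0.389).

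In the remaining lists, Derl2 (0.67) and Ube2g2 (0.64) rose among 17 degradation genes, while the ubiquitin ligase Syvn1 fell (-0.62, limma adjusted p = 0.0297). Sec11c, a signal peptidase subunit, rose by 0.88 and was the 1 call among 25 translocation and glycosylation genes. Of 15 cytosolic and mitochondrial chaperones 4 rose, led by Hspd1 (0.92), Cct3 (0.79) and Dnaja1 (0.67). In the same comparison 6 of 10 fibroblast markers fell and 0 of 10 rose, Lum by -1.91 and Pdgfra by -1.41, 1 of 10 macrophage markers fell (Mpeg1, -0.79), and 1 of 6 endothelial markers rose (Tek, 2.66). The part of these marker changes in the chaperone results was not tested.

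The third comparison followed SKO cells over the days, with the treated and untreated arrays of a day pooled. Between any days, Hspa5 and Pdia6 changed, 2 of 10 genes against 18.9% of all genes, and the share is close to that background. An unadjusted p under 0.05 in limma was reached by 4 of 10 members and 33.0% of all genes. The gap between the highest and the lowest day was 0.69 for Hspa5 (limma adjusted p = 0.0210) and 0.80 for Pdia6 (0.0214). Dnajb9 (0.59, adjusted p = 0.0631), Calr (0.60, 0.103) and Hsp90b1 (0.57, 0.183) did not pass, and Canx had the smallest gap, 0.20. Without day 3 neither Hspa5 nor Pdia6 was called (adjusted p = 0.0519 and 0.0973), with gaps of 0.69 and 0.65. Hspa5 was also not called without day 5 (0.0503, gap 0.62), nor Pdia6 without day 4 (0.0515, gap 0.72). Within days 3, 5 and 10 their gaps were 0.11 and 0.31, and within days 4, 6 and 8 they were 0.10 and 0.10, with 0 of 10 members called in either set. Those sets are the high and the low days of both genes, so small gaps within them follow from the split and test nothing. With fewer arrays in each set, fewer of all genes were called as well. In the same any-day test limma called 12 of 30 other ER folding factors, led by Pdia5 (1.34), Ero1b (0.99) and Ero1a (0.96), 4 of 17 stress sensors and transducers, 4 of 17 degradation genes, 2 of 25 translocation and glycosylation genes and 4 of 15 cytosolic and mitochondrial chaperones.

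Day 4 was the first low day. Hspa5 was 9.19 and 9.34 on day 4 with and without vitamin C, against 9.86 and 9.91 on day 3, and fell by 0.62 on the log2 scale (SE 0.17, limma adjusted p = 0.0489). Pdia6 was 9.41 and 9.41 on day 4, against 10.10 and 10.32 on day 3, and fell by 0.80 (SE 0.18, adjusted p = 0.0263). These were the 2 of 10 genes lower, with 0 of 10 higher, against 3.94% of all genes lower and 4.07% higher. An unadjusted p under 0.05 in limma was reached by 5 of 10 members and 24.6% of all genes. Sdf2l1 (-0.60, adjusted p = 0.101), Hsp90b1 (-0.48, 0.128) and Pdia4 (-0.44, 0.0905) lay on the same side and did not pass.

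On day 5 the same genes were back. Hspa5 was 10.05 and 9.86 on day 5 with and without vitamin C, against 9.19 and 9.34 on day 4, and rose by 0.69 (SE 0.17, limma adjusted p = 0.0375), or 1.61-fold. Pdia6 was 10.11 and 10.02 on day 5, against 9.41 and 9.41 on day 4, and rose by 0.65 (SE 0.18, adjusted p = 0.0484). That is 2 of 10 genes higher and 0 of 10 lower, against 3.4% of all genes higher and 3.83% lower. In either direction, 6 of 10 members and 23.6% of all genes had an unadjusted p under 0.05 in limma. Both of these steps use the day 4 arrays, and the day 3 arrays also entered the comparison with GFP cells, so these calls are not independent of one another.

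Each step rests on 2 arrays a day. When any 1 of the 4 arrays of a step was left out, 1 of its days kept a single array. Calls were then lost among the members and among nearly all other genes alike, so this loss is not particular to Hspa5 and Pdia6. Their differences stayed between -0.88 and -0.53 for day 4 and between 0.55 and 0.81 for day 5.

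Later steps gave no calls. On day 6 against day 5 none of the 10 genes passed, against 2.11% of all genes, with Hspa5 at -0.69 (limma adjusted p = 0.0592), Pdia6 at -0.56 (0.118) and Calr at 0.60 (0.116). An unadjusted p under 0.05 was reached by 4 of 10 members and 18.9% of all genes. On day 8 against day 6 none passed, against 0% of all genes, and 0 of 10 had an unadjusted p under 0.05. On day 10 against day 8 none passed, against 3% of all genes, while 4 of 10 members and 18.6% of all genes had an unadjusted p under 0.05. There Hspa5 stood at 0.47, Pdia6 at 0.42, Calr at -0.42 and Dnajb9 at -0.59.

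**Figure D4:**
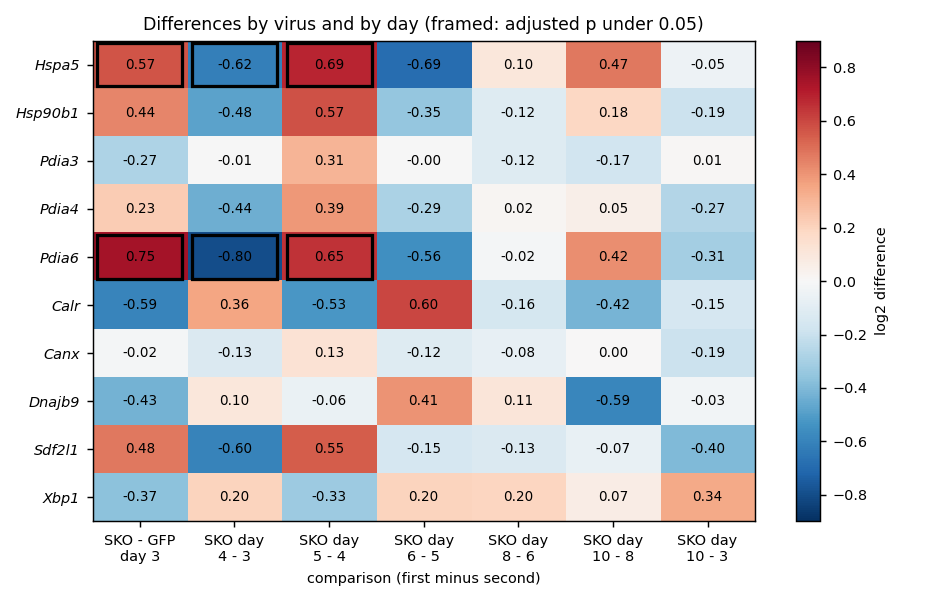
Log2 differences of the 10 genes (rows) between SKO and GFP cells on day 3 and between days in SKO cells (columns, first minus second); red is higher and blue lower in the first. Black frames mark the 6 differences with a limma adjusted p under 0.05, all of them in Hspa5 and Pdia6; neighbouring columns share arrays.

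The last day set against the first showed no called change in any of the 10 genes, against 12.2% of all genes, and 0 of 10 had an unadjusted p under 0.05 in limma. Hspa5 was 9.86 and 9.82 on day 10 with and without vitamin C, against 9.86 and 9.91 on day 3, a difference of -0.05 with an unadjusted 95% interval of -0.42 to 0.33. Xbp1 (0.34, adjusted p = 0.252) and Sdf2l1 (-0.40, adjusted p = 0.283) had the largest differences. With day 4 as the base in place of day 3, Hspa5 was called higher on day 10 (0.57, limma adjusted p = 0.0427). Day 4 was a low and day 10 a high day of Hspa5 in the alternation described above. Over all genes, the alternative settings of this comparison called between 345 and 3182. The members' median was -0.17 for day 10 against day 3, beside -0.02 for all genes.

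Single folding genes outside the 10 did change over the course. Pdia5, a disulfide isomerase, read 7.83 and 7.68 on day 10 with and without vitamin C, against 8.84 and 8.96 on day 3, and fell by 1.15 on the log2 scale (SE 0.16, limma adjusted p = 0.00066). Serpinh1 (Hsp47), the collagen chaperone, fell by 0.75 (adjusted p = 0.0177), and Ero1b rose by 0.99 (0.0085). In all 1 of 30 other ER folding factors rose and 4 fell. Creb3l1 fell by 1.21 (adjusted p = 0.00383) as the 1 call among 17 stress sensors and transducers, and 0 of 17 degradation genes were called, with 3 at an unadjusted p under 0.05. Ssr1 (-0.57) and Ssr4 (-0.50), subunits of the translocon-associated complex, fell among 25 translocation and glycosylation genes, and Hspa9 (-0.91) and Cct3 (-0.56) among 15 cytosolic and mitochondrial chaperones.

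Markers of other cells moved in the same comparison. On day 10 against day 3, 8 of 10 macrophage markers rose and 0 fell (Mrc1 by 2.78, Lyz2 by 2.62), 4 of 10 pluripotency markers rose and 0 fell (Fbxo15 by 3.74), and 3 of 10 fibroblast markers rose while 1 fell (Dcn by 2.10, Col1a1 by -0.79). In addition 4 of 6 epithelial markers (Epcam by 2.91) and 1 of 6 endothelial markers (Tek by 1.89) rose. Their part in the folding results was not tested.

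The single steps involved the neighbouring pathways too. On day 4 against day 3, 6 of 30 other ER folding factors fell and 0 rose, led by Pdia5 (-0.96), Fkbp14, an ER prolyl isomerase (-0.82), and Tmx3 (-0.81, limma adjusted p = 0.0338). In the stress, degradation and translocation lists Nupr1 (-0.70), Derl2 (-0.57), Spcs3 (-0.77), Sec11c (-0.75) and Stt3a (-0.72) fell and no gene rose. In that step 5 of 15 cytosolic and mitochondrial chaperones fell and 0 rose, with Hspd1 at -1.05, Hspa9 at -0.80 and Dnaja1 at -0.76. On day 5 against day 4, 4 of 30 other folding factors rose and 0 fell (Fkbp14 by 0.91, Tmx3 by 0.84 and Uggt2 by 0.76). Dnaja1 (0.78), Stt3a (0.59) and Selenos (0.52) rose in the other lists, while Creb3l1 (-1.35, adjusted p = 0.0124), Syvn1 (-0.75, 0.0325) and Hspb1 (-0.61, 0.0474) fell.

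Cell type markers were counted in the same steps. On day 5 against day 4, 2 of 10 fibroblast markers rose (Lum by 1.43, Dcn by 0.99), as did 1 of 6 endothelial (Tek by 0.96), 1 of 10 pluripotency (Fbxo15 by 1.28) and 1 of 6 epithelial markers (Ocln by 0.73), and none fell. Their part in the chaperone changes was not tested. On day 4 against day 3 limma called no marker of the 6 lists, with 1 fibroblast and 1 pluripotency marker at an unadjusted p under 0.05. None of the 10 macrophage markers was called in either step, with 0 at an unadjusted p under 0.05 for day 4 and 1 for day 5.

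Over the 12 SKO arrays the 10 genes did not vary as 1 block. Of their 45 pairs, 28 had a Pearson r above 0, and the median r was 0.10. Hspa5, Pdia6, Hsp90b1 and Pdia4 formed the closest set, with r from 0.70 to 0.93 and the highest for Hspa5 with Pdia6. Calr had r = -0.94 with Hspa5 and -0.83 with Pdia6, although the promoters of all 3 hold an ERSE, as printed above. Canx, with an ERSE as well, had r = 0.39 with Hspa5. These values are descriptions over arrays that share days and the alternation named above.

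The genes outside the list whose course was most like that of the members' mean over the same 12 arrays, among the 6578 genes with a mean above the median and an SD of at least 0.2, were Syap1 (r = 0.96), Tmem30a (0.92), Rasa1 (0.91), Spcs2, a signal peptidase subunit (0.91), Dnajc8 (0.90), Rhot1 (0.90), Rab24 (0.90) and Pgm2l1 (0.90). That mean averages genes that ran in opposite directions. Centred, it spanned only -0.22 (day 4 with vitamin C) to 0.15 (day 5 without it) on the log2 scale. The r values were picked as the highest of many, over arrays that share the alternation, and shared regulation was not tested.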

How the data were processed

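Total RNA (100 ng per sample) was measured on 14 Affymetrix whole-transcript arrays. The authors deposited log2 signals, which the submitters' processing notes credit to RMA and Partek, with versions not given in the sources used here. That the scale is log2 was read from the values (0.72 to 14.1). Of 28853 probes, 21789 had 1 gene symbol in the platform annotation, 1621 several and 5443 none listed. Genes were named from single-symbol probes, updated through RefSeq (GRCm38.p6, 19856 genes found), with the probe of highest mean per gene (999 genes had several). Samples were grouped by the labels. Linear models were fitted with lmFit and moderated with eBayes of limma 3.58.1 (R 4.3.3), after a check on simulated data. Adjustment was by Benjamini-Hochberg over 19938 genes, with calls at 0.05. Effects of vitamin C, day and steps came from the 12 SKO arrays with terms for day and vitamin C (5 residual degrees of freedom), which pairs the arrays of a day as the labels do. All 14 arrays entered SKO against GFP (6) and the test of unequal vitamin C differences between the viruses (5), and the drift left 4.

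The 10 genes and all gene lists were chosen with earlier results of these data known. All 10 genes were named, and beside them some of the called genes per list and comparison, mostly those with the largest differences. The sensors Ern1 and Eif2ak3 were named whatever their difference, so a gene left unnamed may have differed more than a named one. Listed genes without a probe row of their own were not analysed here. Other settings tried were median centring, quantile normalization, a filter on dim genes, an intensity trend or robust variances, no day term (vitamin C), the mean of a gene's probes, other days and leaving out single days or arrays. The consecutive-day steps were added after the data were seen. Motifs were searched in Python 3.11.15, and figures were drawn with matplotlib 3.10.9.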

Additional observations from a re-analysis of the deposited data

How the results depend on the processing

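Vitamin C called 0 of the 10 genes under all 15 alternatives, and the members' median stayed between -0.16 and -0.07 on the log2 scale. With an intensity trend in limma, 4 members were called between any days (Calr and Dnajb9 added), 4 for SKO against GFP on day 3 (Calr and Hsp90b1 added), 4 for day 4 against day 3 (Pdia4 and Hsp90b1 added), 4 for day 5 against day 4 (Hsp90b1 and Calr added), 3 for day 6 against day 5 (Hspa5, Pdia6 and Calr) and 1 for day 10 against day 8 (Dnajb9). Over all genes, no alternative called more than 5011 between any days (3773 in the main setting) or more than 4152 for SKO against GFP (3519). Without the 6646 dimmest genes (mean below 4.54), where fewer genes are tested, Hspa5 was the 1 call for day 6 against day 5 and Dnajb9 the 1 call for day 10 against day 8. Quantile normalization left 1 member called for day 4 against day 3 and 1 for day 5 against day 4. With SKO day 4 in place of day 3, SKO against GFP called 0 members, the median was -0.16, and Hspa5 (-0.048) and Pdia6 (-0.051) changed sign. With day 4 as the base, day 10 called 1 member, the median was 0.16 and Hspa5 turned to 0.57. Day 4 was a low and day 10 a high day of that gene. Within days 3, 5 and 10, and within days 4, 6 and 8, the any-day test called 0 members. These sets are the high and the low days of Hspa5 and Pdia6, so this outcome follows from the split. Leaving out 1 day or array gave 0 to 3 members between any days, 0 to 3 for SKO against GFP, 0 for day 4 against day 3, 0 for day 5 against day 4, and 0 to 1 for day 6 against day 5. The causes of these shifts were not tested. Of member values not called under either setting, 74 of 1144 had the opposite sign. Re-scaling moved the median of all genes by at most 0.07. No paired analysis beyond the day term was possible because the labels give no replicate numbers.

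Counts over all genes moved as well. The intensity trend gave 364 genes for vitamin C (186 in the main setting), 35 for the drift (7), 1 for SKO against GFP vitamin C differences (0), 2528 for day 4 against day 3 (1598), 2354 for day 5 against day 4 (1442), 1293 for day 6 against day 5 (420) and 1224 for day 10 against day 8 (599). Without the dimmest genes the last 4 counts were 2504, 2327, 1160 and 1092, and the drift gave 23. Leaving out 1 day or array gave 23 to 263 genes for vitamin C, 964 to 2696 for day 10 against day 3 (2430), 1991 to 4323 between any days (3773), 1298 to 2758 for SKO against GFP (3519), 0 to 10 for the drift, 0 to 1 for day 4 against day 3, 0 for day 5 against day 4, 0 to 610 for day 6 against day 5, 0 to 1 for day 8 against day 6 and 0 to 804 for day 10 against day 8. For vitamin C, days 3, 5 and 10 alone gave 0 genes, days 4, 6 and 8 alone 62, and no day term 4. Between any days these sets gave 1232 and 175. SKO day 4 against GFP gave 1551 genes, and day 10 against day 5 gave 345.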
